A study of Mus musculus with 4 samples.

Results

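The Wnt signalling genes described here are 12 Wnt ligands, 14 receptors and co-receptors, 8 genes of the R-spondin axis, 9 secreted inhibitors and modulators, and 6 feedback genes and targets. They were chosen by gene symbol, and all 49 were measured among 19938 genes on the array. Each gene is represented by its brightest transcript cluster (a set of probes covering a transcript) that is paired with that symbol alone, and Wnt4 is the member with more than 1 such cluster. Gene expression was measured in 4 sorted mouse cell populations, with 1 array for each. Both cultured populations were gated for GFP (LMX1A::GFP+) and differed in CORIN, and they were sorted on day 9 of neural differentiation from embryonic stem cells (ESCs) of 129SVEV origin with GFP knocked in at the Lmx1a locus, after exposure to SHH and FGF8b earlier in the culture. They are called cultured CORIN+ and cultured CORIN- cells below. The fetal populations were CORIN+ and CORIN- cells of the C57BL/6N ventral midbrain (VM) at E11.5, sorted without an LMX1A gate. CORIN is a membrane-bound serine protease of the floor plate, the ventral midline of the neural tube. LMX1A is a transcription factor needed to make midbrain dopaminergic (mDA) neurons. Each population has a single array, so the folds are descriptions with neither an error nor a p-value.

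Wnt proteins are secreted lipid-modified ligands that bind Frizzled receptors. With the co-receptors LRP5 and LRP6 they stabilize beta-catenin, which activates target genes with TCF/LEF factors. With ROR1 and ROR2 they act instead on cell polarity and movement. R-spondins strengthen the response by removing the ubiquitin ligases ZNRF3 and RNF43 from Frizzled receptors, whereas DKK and SFRP proteins and WIF1 act outside the cell and mostly oppose it. In the midbrain, Wnt1 is required for the midbrain-hindbrain region and for mDA neurons, and Wnt5a acts in the morphogenesis of the VM.

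The labels were first set against markers. Corin, whose product the sort selects, was 3.90-fold higher in cultured CORIN+ than in cultured CORIN- cells and 17.7-fold higher in fetal CORIN+ than in CORIN- fetal cells. The midbrain and forebrain gene Otx2 had log2 signals from 12.76 to 12.95 in the 4 arrays. En2 of the midbrain-hindbrain region was at 11.26 and 11.42 in the fetal arrays but at 6.59 in cultured CORIN+ and 7.32 in cultured CORIN- cells. Its paralogue En1 was at 9.49 and 9.46 in the culture and at 9.93 and 9.70 in the fetus. Lmx1b (2.56-fold and 4.47-fold) and Msx2 (1.46-fold and 4.33-fold) were higher in the culture in CORIN+ and CORIN- cells. Of the 9 measured markers of mDA progenitors, none was at least 2-fold apart in the ESC-derived pair, and 2 were at least 2-fold higher and 1 lower in the CORIN+ cells of the fetus. Lmx1a itself is not analysed here, because no cluster is paired with it alone. Median log2 signals of the arrays lay between 7.97 and 8.03 over all transcript clusters.

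Wnt genes tended to be lower in CORIN+ cells of the culture and higher in CORIN+ cells of the fetus. In the ESC-derived pair 37 of the 49 members had a lower signal in cultured CORIN+ cells, against 49.4% of all genes, and the median log2 fold of the members was -0.16, against 0.0021 for all genes. Here and below, a log2 fold is the log2 signal in CORIN+ cells minus that in CORIN- cells. In the fetal VM 37 of the 49 had a higher signal in CORIN+ cells, against 40.3% of all genes, with a median of 0.25 against -0.040. With the folds centred on the median of all genes, 41 members were higher in the fetal pair, against 50% of all genes. The 2 comparisons share no array. Of the members, 26 were lower in the ESC-derived pair and higher in the fetal pair, which is 53.1% of them, against 18.1% of all genes (30 members against 23.2% with centred folds). A single member, Fzd3, ran the other way (2 after quantile normalization), against 28.3% of all genes. Of the rest, 11 were higher in both pairs (background 22.2%) and 11 lower in both (background 31.3%). At a level of 1.5-fold in both pairs, Wnt1, Ror2, Rspo2 and Dkk2 had the opposite pattern (background 0.421%) and no member the reverse (background 0.0451%). In 13 members the fetal fold lay at least 2-fold above the ESC-derived one (background 3.62%), and in none at least 2-fold below it (background 0.627%). Brighter genes gave a like picture. Among the 35 members whose mean signal lay above the median of all genes, 25 were lower in cultured CORIN+ cells (45.7% of the genes above that median), 30 higher in the CORIN+ cells of the fetus (42.9%), 21 both at once (16.9%), and 8 at least 2-fold higher in the fetus (3.54%).

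Fewer members differed by at least 2-fold. In the ESC-derived pair Dkk3 was at least 2-fold higher (background 0.376% of all genes) and Wnt8b at least 2-fold lower (background 0.522%) in cultured CORIN+ cells. In the fetal VM 8 members were at least 2-fold higher in CORIN+ cells, which is 16.3% of the members against 3.16% of all genes. They are Dkk2, Ror1, Wnt1, Nkd2, Fzd6, Ror2, Dkk3 and Nkd1. No member was at least 2-fold lower there, against 0.456% of all genes, and Wnt7a came nearest at 1.67-fold lower. In 28 of the 49 members both folds stayed under 1.5-fold, and the share of all genes that did so was not counted. In the ESC-derived pair 1 member was at least 1.5-fold higher and 10 lower, against 1.52% and 2.32% of all genes. In the fetal pair 13 were higher and 2 lower, against 5.92% and 2.80%.

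**Figure D1:**
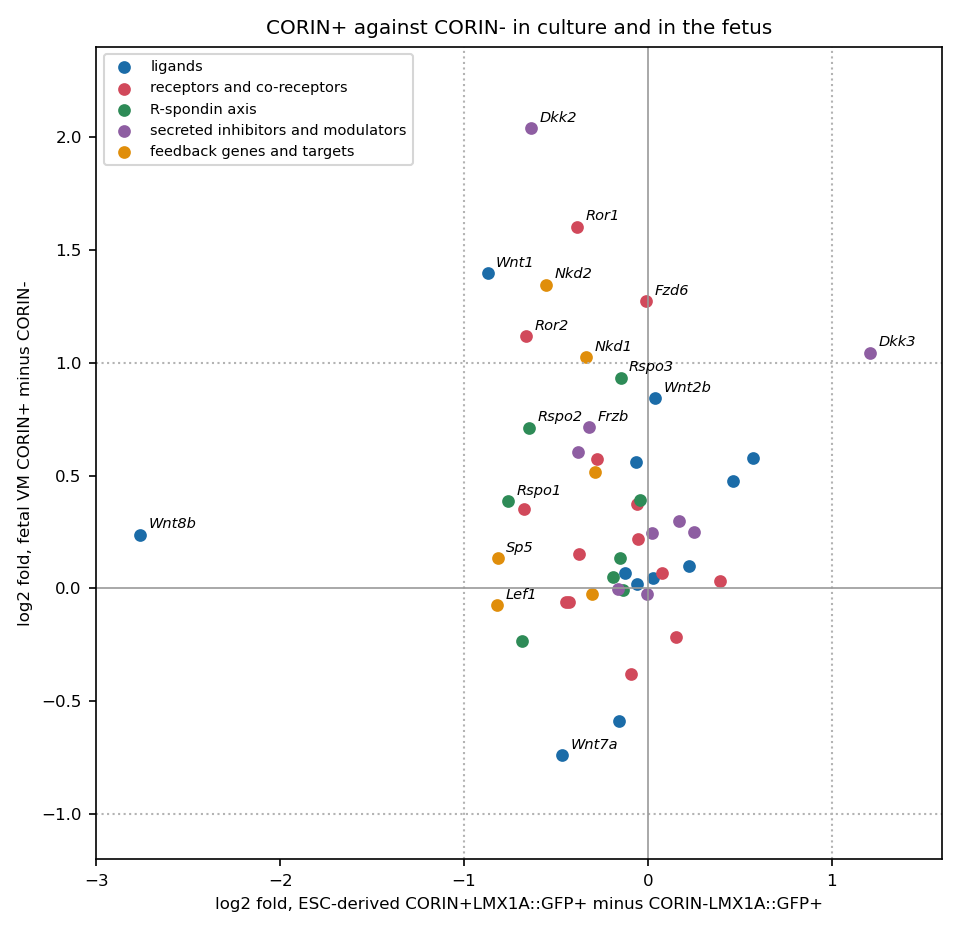
Log2 fold of each of the 49 members in the ESC-derived pair (horizontal axis) and in the fetal VM pair (vertical axis), CORIN+ minus CORIN-, with 1 array per population. Points are genes coloured by role, dotted lines mark 2-fold, and 26 of the 49 points lie in the upper left quadrant, with Wnt8b far to the left (-2.76) and Dkk2 at the top (2.04).

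Markers of other cell types differed along with these folds. All 14 markers of mesenchyme and meninges were at least 2-fold higher in CORIN+ fetal cells, and their summed linear signal was 29627 in CORIN+ and 6660 in CORIN- cells. In the ESC-derived pair 13 of the 14 were lower in cultured CORIN+ cells (4 by 2-fold or more), with sums of 6152 and 10141. Of 12 macrophage markers, 11 were at least 2-fold higher in CORIN+ fetal cells (Csf1r 22.7-fold), while in the culture all 12 had log2 folds between -0.13 and 0.12. Of 10 roof plate markers, which include the members Rspo1 and Wnt3a, 6 were at least 2-fold higher in CORIN+ fetal cells, and 8 had a lower signal in cultured CORIN+ cells. Among those 6, Msx1 and Msx2 are also on the mDA progenitor list and are its 2 markers at least 2-fold higher there. Erythroid markers (5 of 5) and 2 of 9 endothelial markers were also at least 2-fold higher in CORIN+ fetal cells. Pluripotency markers were lower in cultured CORIN+ cells in 8 of 8 cases, 6 of them at least 2-fold. Neuronal markers had a lower signal in the CORIN+ array of both pairs in 10 of 10 cases. Floor plate markers had a higher one in 9 of 10 cases in the culture and in 10 of 10 in the fetus. These counts include Corin itself, whose direction in both pairs was set by the sort. The part of these cells in the folds of the Wnt genes was not tested. In such sorted bulk samples, fewer cells of a type and less RNA per cell cannot be told apart. No detection calls were used, so no marker can be called absent.

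**Figure D2:**
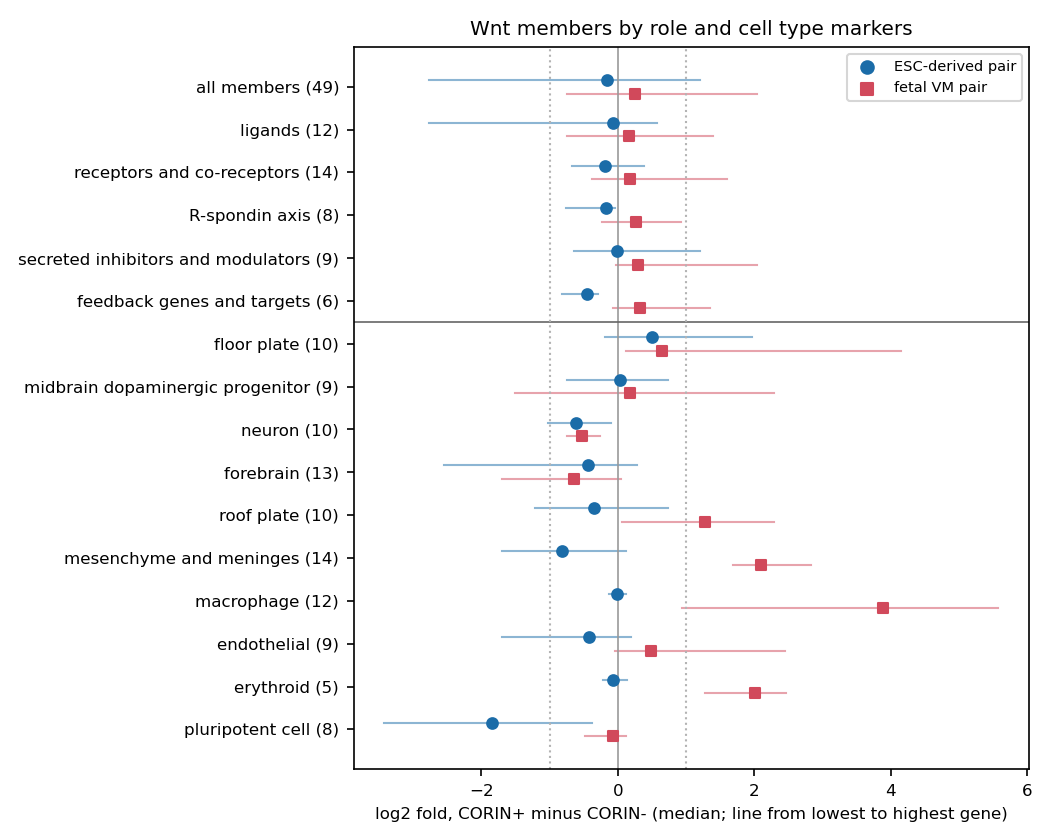
Log2 fold, CORIN+ minus CORIN-, for the Wnt members by role (above the line) and for 10 lists of cell type markers (below it), with the number of measured genes in parentheses and 1 array per population. Symbols are medians and lines run from the lowest to the highest gene, blue for the ESC-derived pair and red for the fetal VM pair. The mesenchyme list has medians of -0.81 and 2.11, and the feedback genes of the Wnt pathway have medians of -0.45 and 0.33.

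Among the ligands, Wnt8b had the largest difference in the culture and Wnt1 in the fetus. Wnt8b, a ligand best known from the forebrain, had log2 signals of 8.09 in cultured CORIN+ and 10.85 in cultured CORIN- cells, and of 10.65 in fetal CORIN+ and 10.41 in CORIN- fetal cells. Cultured CORIN+ cells thus stood apart from the other populations, 6.78-fold below the cultured CORIN- cells, while the fetal pair differed by 1.18-fold. Most forebrain markers had the same direction in the culture, where 10 of 13 were lower in cultured CORIN+ cells and 5 of them at least 2-fold. Their log2 folds there ran from -2.55 (Barhl2, 5.86-fold lower) to 0.29, with a median of -0.44. In the fetal pair 12 of 13 were lower in CORIN+ cells, 4 of them by 2-fold or more (median log2 fold -0.64), where Wnt8b was higher. The part of such cells in the Wnt8b fold was not tested. Wnt1 had log2 signals of 11.55 in cultured CORIN+ and 12.43 in cultured CORIN- cells, against 9.86 in fetal CORIN+ and 8.47 in CORIN- fetal cells. It was therefore 1.83-fold lower in the CORIN+ cells of the culture but 2.63-fold higher in those of the fetus, and both cultured populations lay above both fetal ones.

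Wnt5a and Wnt5b had the same direction in both pairs. Wnt5a, which signals mainly without beta-catenin, had log2 signals of 12.11 and 11.54 in the cultured CORIN+ and CORIN- cells and of 11.20 and 10.62 in fetal CORIN+ and CORIN- cells. The CORIN+ cells were 1.48-fold higher in the culture and 1.49-fold higher in the fetus. Its paralogue Wnt5b was at 9.86 and 9.39 in the culture and at 8.95 and 8.47 in the fetus, 1.38-fold and 1.39-fold higher in CORIN+ cells. Between the pairs the log2 folds of Wnt5a and Wnt5b differed by 0.010 and 0.014, and those of Wnt1 by 2.27. Wnt7a, a ligand of the neural tube with a known role in brain vessels, was lower in CORIN+ cells of both pairs, 1.38-fold in the culture and 1.67-fold in the fetus. Wnt3 was 1.5-fold lower in CORIN+ fetal cells and 1.12-fold lower in the culture. Wnt2b (1.79-fold) and Wnt9a (1.47-fold) were higher in CORIN+ fetal cells, while in the culture Wnt2b was 1.03-fold higher and Wnt9a 1.05-fold lower. Wnt4 was 1.17-fold and 1.07-fold higher, and Wnt7b 1.02-fold and 1.03-fold higher, in the culture and the fetus. Wnt3a was 1.09-fold lower and 1.05-fold higher, and Wnt11 was 1.04-fold lower and 1.02-fold higher (its fetal sign turned after quantile normalization). Wnt2b, Wnt3, Wnt3a and Wnt11 lay below the median of all genes in all 4 arrays.

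The receptors differed little in the culture, and the largest fetal folds were those of the ROR kinases and Fzd6. Of the 14 receptors and co-receptors, 11 were lower in cultured CORIN+ cells (49.4% of all genes) and none by 2-fold (0.522%). In the fetal VM 10 were higher in CORIN+ cells (40.3% of all genes) and 3 of them at least 2-fold (3.16%). Ror1, a receptor kinase that binds Wnt5a, had log2 signals of 8.47 in cultured CORIN+, 8.85 in cultured CORIN-, 10.03 in fetal CORIN+ and 8.43 in CORIN- fetal cells. The fetal CORIN+ array alone was high, 3.04-fold above CORIN- fetal cells. Ror2, its relative, was at 9.13, 9.79, 10.26 and 9.14 in the same order, which is 1.58-fold lower in the CORIN+ cells of the culture and 2.17-fold higher in those of the fetus. Fzd6, a Frizzled of the planar polarity branch, was at 9.03 and 9.04 in the culture and at 9.18 and 7.90 in fetal CORIN+ and CORIN- cells. For this gene the fetal CORIN- array was low, 2.42-fold below the fetal CORIN+ array, and the other 3 lay between 9.03 and 9.18. Ror1 and Ror2 are also expressed widely in mesenchyme, whose 14 markers had a median log2 fold of 2.11 in the fetal pair and -0.81 in the culture. The roof plate (1.27 and -0.35), endothelial (0.49 and -0.43), macrophage (3.89 and -0.012) and erythroid lists (2.01 and -0.064) had medians of the same signs. The floor plate list was positive in both pairs. The part of such cells in the folds of the receptors was not tested.
Among the remaining Frizzled receptors, Fzd4 was 1.59-fold lower in cultured CORIN+ cells, and Fzd5, Fzd7 and Fzd8 were 1.36-fold, 1.29-fold and 1.35-fold lower. In the fetus Fzd4 was 1.28-fold higher, and Fzd5, Fzd7 and Fzd8 lay within 1.11-fold. Fzd4 and Fzd5 lay below the median of all genes in 3 of the 4 arrays. Fzd1 was 1.31-fold higher in cultured CORIN+ cells. Fzd2, Fzd3, Fzd9 and Fzd10 lay within 1.30-fold in both pairs, and log2 signals of Fzd3 were between 11.91 and 12.12 in all 4 arrays. The co-receptor gene Lrp5 was 1.21-fold lower in cultured CORIN+ and 1.49-fold higher in CORIN+ fetal cells, and Lrp6 was 1.04-fold lower and 1.16-fold higher.

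All 8 genes of the R-spondin axis had a lower signal in cultured CORIN+ cells, from 1.03-fold (Znrf3) to 1.69-fold (Rspo1), against 49.4% of all genes. Of the 8, 6 had a higher signal in CORIN+ fetal cells, against 40.3% of all genes. With centred folds (50% of all genes) or quantile normalization (41.5%), 7 of the 8 had a higher signal there. None reached 2-fold in either pair. The ligand Rspo3 was at 7.39 and 7.54 in the cultured CORIN+ and CORIN- arrays and at 9.02 and 8.09 in the fetal ones, which is 1.91-fold higher in CORIN+ fetal cells. Rspo2, another secreted R-spondin, had log2 signals of 8.86 and 9.51 in the culture and of 9.93 and 9.22 in the fetus. It was 1.56-fold lower in cultured CORIN+ and 1.64-fold higher in CORIN+ fetal cells. Rspo1, which is on the roof plate list, was at 7.74, 8.50, 9.26 and 8.88 in the same order. Signals of all 3 were highest in CORIN+ fetal cells and lowest in cultured CORIN+ cells. The receptors Lgr4 and Lgr5 had log2 folds of 0.05 and -0.23 in the fetus. Lgr5, itself a target of the pathway in many tissues, was 1.61-fold lower in cultured CORIN+ cells. Znrf3 was at 10.90 and 10.95 in the culture and at 10.24 and 9.85 in the fetus. The ubiquitin ligase genes Znrf3 and Rnf43 were 1.31-fold and 1.10-fold higher in CORIN+ fetal cells. Rspo4 and Rnf43 lay below the median of all genes in all 4 arrays, and Rspo3 in 3 of them.

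Among the secreted inhibitors, the 4 Dkk genes each had a pattern of its own. Dkk3 encodes the most divergent protein of the family and is not an established LRP antagonist. It was at 10.73 in cultured CORIN+ and 9.52 in cultured CORIN- cells and at 9.42 and 8.38 in fetal CORIN+ and CORIN- cells. CORIN+ cells were thus higher in both pairs, 2.31-fold and 2.06-fold, and no other member was at least 2-fold higher in both. With 32 added to the linear signal the fetal fold of Dkk3 was 1.97-fold, below the threshold. Dkk2, which can inhibit or weakly activate the pathway through LRP6, had log2 signals of 10.50 and 11.14 in the culture and of 10.27 and 8.23 in the fetus. It was 1.55-fold lower in cultured CORIN+ cells and 4.11-fold higher in CORIN+ fetal cells, and the fetal CORIN- array stood below the other 3 by at least 2.04 on the log2 scale. Dkk1, an inhibitor that binds LRP6, was at 11.98 and 12.36 in the culture and at 9.16 and 8.55 in the fetus. Both cultured arrays were high, and the folds within the pairs were 1.30-fold lower and 1.52-fold higher. Dkk4 lay near 7 in every array, from 6.98 to 7.14.
The SFRP genes, whose proteins bind Wnts, differed less. Sfrp1 had log2 signals from 11.30 to 11.78 and Sfrp2 from 11.32 to 11.83, and both were highest in CORIN+ fetal cells. Frzb, which encodes another SFRP protein, was 1.25-fold lower in cultured CORIN+ and 1.64-fold higher in CORIN+ fetal cells. Wif1 was 1.19-fold higher in the CORIN+ cells of both pairs. Sfrp5 had signals from 6.91 to 6.95 over the 4 arrays. Wif1, Sfrp5 and Dkk4 lay below the median of all genes in every array.

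All 6 feedback genes and targets had a lower signal in cultured CORIN+ cells (49.4% of all genes), with a median log2 fold of -0.45. Of the 6, 4 had a higher signal in CORIN+ fetal cells (40.3% of all genes), with a median of 0.33. With centred folds 5 of the 6 had a higher signal there (50% of all genes). Axin2, the scaffold of the beta-catenin destruction complex and the most general target of the pathway, had log2 signals of 10.20 in cultured CORIN+, 10.48 in cultured CORIN-, 10.47 in fetal CORIN+ and 9.96 in CORIN- fetal cells. Its folds were 1.22-fold lower and 1.43-fold higher. Lef1, a transcription factor that binds beta-catenin, was at 9.57, 10.39, 10.32 and 10.40 in the same order, so cultured CORIN+ cells alone were low, by 1.76-fold within the culture. Sp5, a zinc finger factor induced by the pathway, was at 9.01, 9.83, 8.76 and 8.62, with cultured CORIN- cells alone high. Nkd1, which binds Dishevelled and limits the response, was at 10.89 and 11.23 in the culture and at 11.05 and 10.03 in the fetus, where it was 2.04-fold higher in CORIN+ cells. Its paralogue Nkd2 was at 7.74 and 8.30 in the culture and at 9.67 and 8.33 in the fetus, 1.47-fold lower and 2.54-fold higher in CORIN+ cells. Nkd2 stood high in CORIN+ fetal cells alone and lay below the median of all genes in the other 3 arrays. Notum, an enzyme that removes the lipid from Wnt proteins, was 1.23-fold lower in cultured CORIN+ cells and lay below the array median in all 4 arrays.

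**Figure D3:**
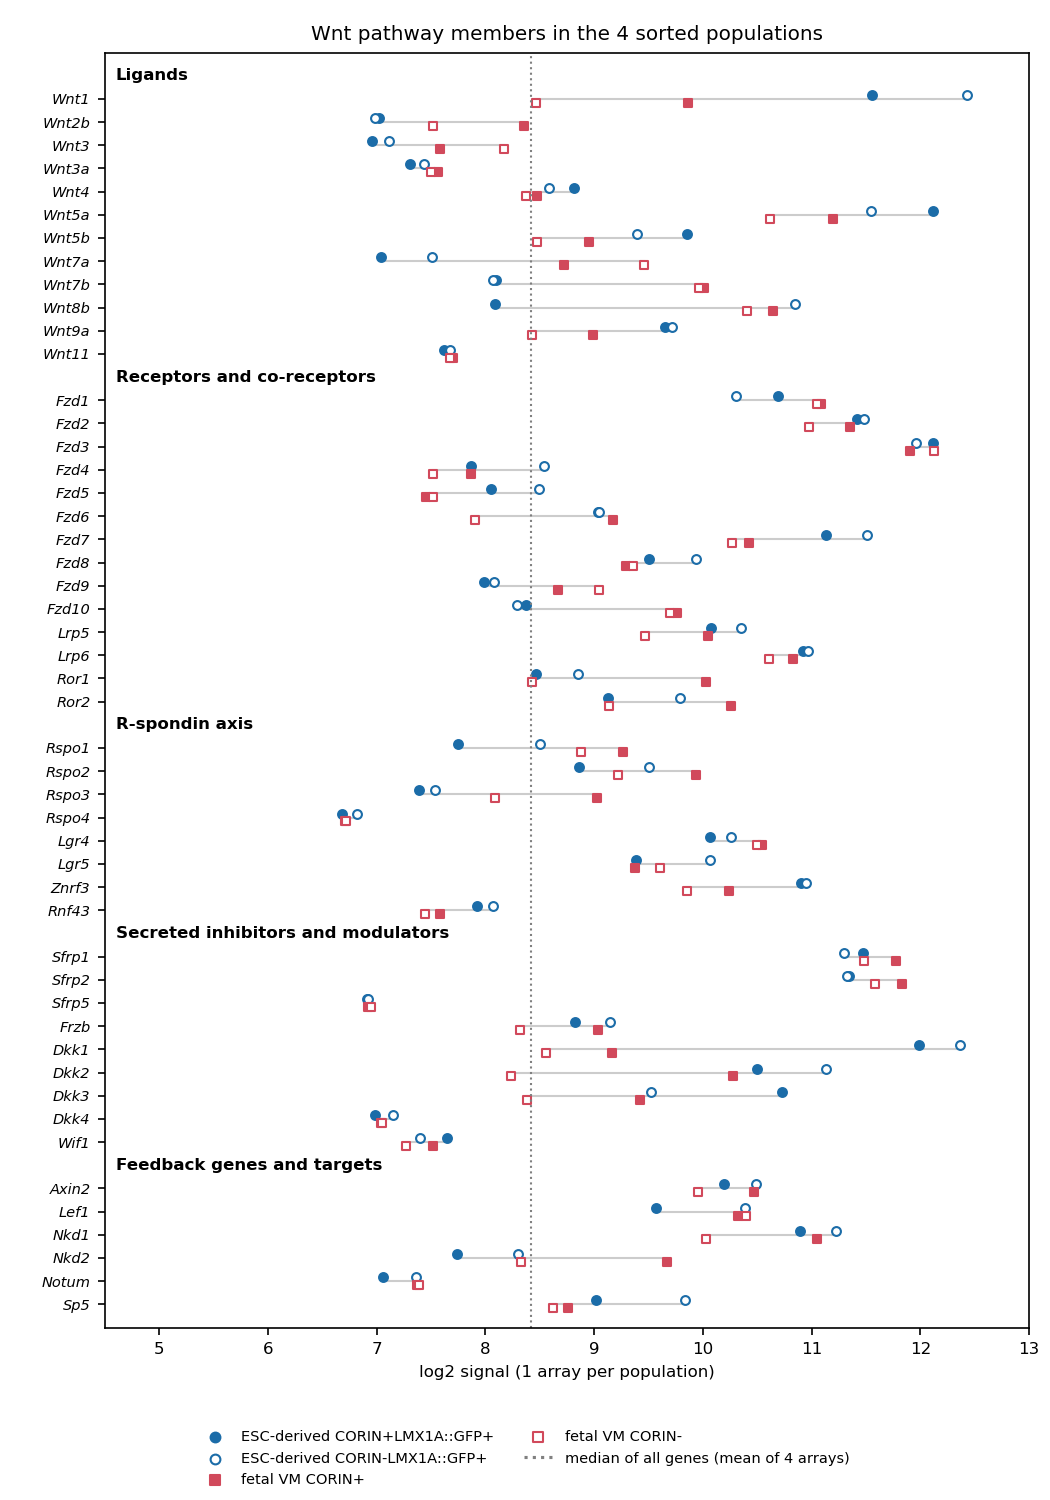
Log2 signal of each of the 49 members (rows, by role) in the 4 populations, with 1 array each. Blue circles are ESC-derived and red squares fetal VM cells, filled for CORIN+ and open for CORIN-, and the dotted line is the median of all genes. Signals of different genes come from different probes and are not comparable in height. Wnt1 and Dkk1 have both blue circles to the right of both red squares, and Wnt7a and Wnt7b the reverse.

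Since the feedback genes are targets of TCF/LEF factors, the promoters of the members were read for the core letters CTTTGAT on either strand (ATCAAAG on the other). RefSeq windows of GRCm38.p6 from 250 bases before to 50 after a start site were found for 33 of the 49 members, in 40 windows. The letters occurred in 3 of the 40 windows, of Sp5, Wnt5b and Wnt11, against 3.73% of 32851 windows of the genome. Wnt5b and Wnt11 also have windows at other start sites, without the letters. Among the feedback genes 1 of 8 windows held them, and the windows of Axin2, Lef1, Nkd1 and Nkd2 did not. No window was found for Notum. A match is a description of letters and not a binding site. Only these exact letters were searched in windows of 300 bases, so a missing match says nothing about other letters or other positions. Sp5 and Wnt5b are shown for the match (in capitals, 104 and 71 bases before the start site), and Axin2 and Nkd1 as feedback genes without a match. Their windows lie at chr2:70474673-70474972 (plus strand), chr6:119449337-119449636 (minus strand), chr11:108920099-108920398 (plus strand) and chr8:88527383-88527682 (plus strand).
Sp5: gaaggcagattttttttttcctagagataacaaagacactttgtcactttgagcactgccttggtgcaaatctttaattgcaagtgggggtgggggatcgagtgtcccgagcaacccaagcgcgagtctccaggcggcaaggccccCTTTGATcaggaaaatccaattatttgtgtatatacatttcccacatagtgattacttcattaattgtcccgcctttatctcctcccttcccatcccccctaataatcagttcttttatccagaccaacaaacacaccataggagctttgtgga
Wnt5b: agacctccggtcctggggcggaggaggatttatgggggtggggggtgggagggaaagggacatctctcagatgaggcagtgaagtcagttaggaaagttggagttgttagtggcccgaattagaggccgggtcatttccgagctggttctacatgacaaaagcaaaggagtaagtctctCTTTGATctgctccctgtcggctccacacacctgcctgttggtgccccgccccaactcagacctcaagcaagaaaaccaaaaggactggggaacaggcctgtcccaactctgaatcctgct
Axin2: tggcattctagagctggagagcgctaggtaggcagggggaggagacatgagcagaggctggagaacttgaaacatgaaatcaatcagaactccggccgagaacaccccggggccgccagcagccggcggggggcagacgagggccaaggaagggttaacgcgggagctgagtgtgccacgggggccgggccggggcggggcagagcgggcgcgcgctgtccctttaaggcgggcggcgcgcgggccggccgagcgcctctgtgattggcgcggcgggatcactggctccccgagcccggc
Nkd1: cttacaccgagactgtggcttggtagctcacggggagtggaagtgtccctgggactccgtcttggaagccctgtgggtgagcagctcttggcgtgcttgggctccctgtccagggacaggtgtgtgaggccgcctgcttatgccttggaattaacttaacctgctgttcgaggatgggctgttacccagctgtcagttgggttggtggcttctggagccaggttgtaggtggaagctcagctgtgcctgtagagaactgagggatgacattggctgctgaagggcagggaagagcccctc
The match in Sp5 thus belongs to a gene that was 1.76-fold lower in cultured CORIN+ cells. The match in this window of Wnt5b belongs to a gene that was 1.38-fold higher there.

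More members, and more of all genes, were at least 2-fold apart between culture and fetus than between CORIN+ and CORIN- cells. These differences also carry the strain, the culture, the LMX1A::GFP gate and the dissection, which cannot be told apart here, and they use the same arrays as the folds above. In CORIN+ cells 3 members were at least 2-fold higher in the culture (background 2.98% of all genes) and 11 at least 2-fold lower (background 4.37%). In CORIN- cells 11 were at least 2-fold higher (background 4.54%) and 4 at least 2-fold lower (background 3.52%). Wnt1, Dkk1 and Dkk3 were higher in the culture in both comparisons, which is 3 of 3 and 3 of 11 of the genes counted. Wnt1 was 3.23-fold higher in CORIN+ and 15.6-fold higher in CORIN- cells, Dkk1 7.08-fold and 14.0-fold, and Dkk3 2.47-fold and 2.21-fold. Wnt7a, Wnt7b and Fzd10 were lower in the culture in both, which is 3 of 11 and 3 of 4. The share of all genes at least 2-fold apart in both comparisons was not counted, so these overlaps have no background. Wnt7a was 3.20-fold and 3.87-fold lower, Wnt7b 3.78-fold and 3.73-fold, and Fzd10 2.63-fold and 2.64-fold. Inside the pairs Wnt7b and Fzd10 lay within 1.06-fold, so their signals separated culture from fetus but not CORIN+ from CORIN- cells.
Other members were 2-fold apart in 1 of the 2 comparisons. In CORIN+ cells Wnt2b, Wnt8b, Ror1, Ror2, Rspo1, Rspo2, Rspo3 and Nkd2 were also at least 2-fold lower in the culture, by 2.10-fold (Rspo2) to 5.89-fold (Wnt8b). Of these, Wnt2b lay below the median of all genes in every array. In the same comparison 13 of 14 mesenchyme markers, 11 of 12 macrophage markers and 5 of 5 erythroid markers were at least 2-fold lower. In CORIN- cells Dkk2 (7.48-fold), Wnt9a (2.45-fold), Fzd7 (2.36-fold), Sp5 (2.31-fold), Nkd1 (2.30-fold), Fzd6 (2.20-fold), Znrf3 (2.14-fold) and Fzd4 (2.03-fold) were also higher in the culture. In the same cells Wnt3, below the median of all genes in every array, was 2.08-fold lower. There 4 of 5 erythroid markers were at least 2-fold lower in the culture, and 5 of 8 pluripotency markers and 4 of 14 mesenchyme markers at least 2-fold higher. Neuronal markers were at least 2-fold lower in the culture in 8 of 10 cases in each comparison (medians -1.98 in CORIN+ and -1.70 in CORIN- cells). Floor plate markers, Corin among them, were at least 2-fold higher in 6 of 10 and 8 of 10 cases. The part of these cells in the folds between culture and fetus was not tested. Whether the 2 comparisons differ was not tested.

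**Figure D4:**
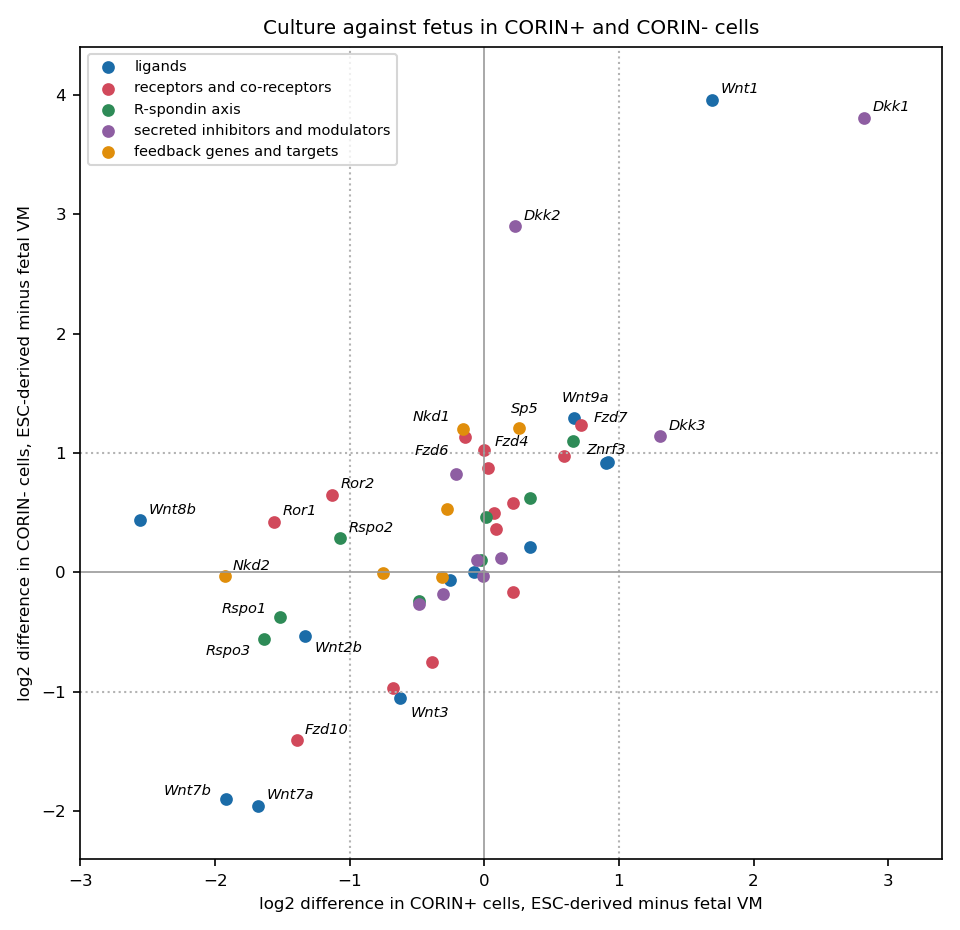
Log2 difference of each of the 49 members between culture and fetus, ESC-derived minus fetal VM, in CORIN+ cells (horizontal axis) and in CORIN- cells (vertical axis), with 1 array per population. Points are genes coloured by role and dotted lines mark 2-fold. Wnt1 (1.69 and 3.96) and Dkk1 (2.82 and 3.81) lie at the upper right, and Wnt7a, Wnt7b and Fzd10 at the lower left.

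The rest of the pathway was read from a list of further genes, most of which stayed under 2-fold within each pair, as did most of all genes. Of 72 such genes, 70 were measured. In the ESC-derived pair none was at least 2-fold higher (0.376% of all genes) and 2 were at least 2-fold lower (0.522%) in cultured CORIN+ cells. These were Sostdc1, a secreted modulator of BMP and Wnt signals (2.54-fold), and Celsr3, a cadherin of the planar polarity branch with a role in axon tracts (2.16-fold). In the fetal VM 3 were at least 2-fold higher in CORIN+ cells (3.16% of all genes) and none at least 2-fold lower (0.456%). Gpc3, a glypican, was at 12.46 and 12.64 in the culture and at 12.59 and 10.76 in fetal CORIN+ and CORIN- cells, which is 3.54-fold. Trabd2b, a membrane protease that inactivates Wnts, was 2.53-fold higher, and Sostdc1, at 7.99 and 6.99, lay just past the threshold. Between culture and fetus, Trabd2b (7.19-fold) and Tpbg (2.14-fold) were at least 2-fold higher in the culture in CORIN+ cells (2.98% of all genes). Draxin (5.31-fold), Celsr3 (3.89-fold), Apc2 (3.18-fold) and Prickle2 (2.70-fold) were lower (4.37%). In CORIN- cells 10 of the 70 were at least 2-fold higher in the culture (4.54% of all genes), with Trabd2b at 12.5-fold. There 5 were lower (3.52%), which were Draxin (6.74-fold), Apc2 (4.16-fold), Celsr3 (3.09-fold), Sp8 (2.87-fold) and Tcf7l2 (2.82-fold). Inside the pairs, the median log2 fold of the 70 genes was -0.06 in the culture and -0.05 in the fetus.
The 18 genes of the cytoplasmic cascade had log2 folds between -0.29 and 0.17 in the culture and between -0.68 and 0.26 in the fetus. Ctnnb1, which encodes beta-catenin, had log2 signals from 12.83 to 13.02. The 10 measured nuclear partners, such as the TCF factors, also stayed under 2-fold in both pairs. Wls, which carries Wnt proteins to the cell surface, was at 12.17 and 11.99 in the culture and at 11.61 and 10.96 in fetal CORIN+ and CORIN- cells. The 7 Wnt genes outside the members had log2 folds between -0.28 and 0.15 in both pairs.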

How the data were processed

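RNA of the sorted cells was amplified with an Ambion kit for whole transcripts, and each population had its own Affymetrix array. The authors used GeneSpring and deposited log2 values, 1 for each of 28856 transcript clusters and array. How probes were summarized, how arrays were normalized, what was filtered and which genome build was used is not given in the sources used here. The annotation pairs 21789 clusters with 1 symbol and 1621 with several, which were not used, and 5446 are unnamed here. Symbols were updated by gene identifier (GRCm38.p6) for 21698 clusters, giving 19938 genes. The cluster with the highest mean of the 4 arrays represents a gene. Populations were taken from the sample labels, and 4 differences of log2 signals were formed. Genes at least 2-fold apart were counted, and the same count over all genes is the background. Lacking replicates, no difference was tested, and precision is limited by how few arrays there are.

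The members and all gene lists were chosen with earlier results of these data known. All 49 members could be named. Values in each array were given for members at least 2-fold apart in a CORIN comparison or 4-fold between culture and fetus, for the highest signal in each role, and for others where their pattern is described. Of the other pathway genes, those at least 2-fold apart in a CORIN comparison were named. Those named between culture and fetus, Ctnnb1, Wls, Otx2, En1, En2, Lmx1b, Msx1, Msx2 and Csf1r were chosen after their values were seen. The alternatives were quantile normalization, centring on the median, 32 added to the linear signal, the mean over the clusters of a gene, the brightest cluster of the arrays compared, genes above the median in 1 or more arrays of a pair, and thresholds of 1.5-fold and 3-fold. A background of brighter genes, the shares of all genes at 1.5-fold and 3-fold and the counts of directions under each scaling were added after the data were seen. The counting code was run on simulated arrays with known shifts, which checks the code and not the reported counts. Promoters came from RefSeq (GRCm38.p6). Python 3.11.15, numpy 2.4.6, pandas 2.3.3 and matplotlib 3.10.9 were used.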

Additional observations from a re-analysis of the deposited data

Results flagged for a closer look

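Opposite directions of at least 1.5-fold in the 2 CORIN comparisons were found for 4 members. Each was lower in cultured CORIN+ cells and higher in CORIN+ cells of the fetus, as were 0.421% of all genes, and 0.0451% had the reverse pattern. The log2 fold of the fetal pair lay above that of the ESC-derived pair by 2.67 for Dkk2, by 2.27 for Wnt1, by 1.78 for Ror2 and by 1.36 for Rspo2. With 1 array per population, these differences between the comparisons were not tested. Over all members, the fetal fold was at least 2-fold above the ESC-derived fold in 13 of 49, against 3.62% of all genes, and in no member at least 2-fold below it, against 0.627%.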

How the results depend on the processing

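Quantile normalization, centring, the offset of 32, the mean over clusters, the other choice of cluster and the filter on low signals kept every count of members at least 2-fold apart within 1.5 times the reported one. Under the first 5 of these no called member turned its direction, and no log2 fold of a member moved by more than 0.21. The members lower in the ESC-derived pair numbered 36 or 37 (49.2% to 50% of all genes). Those higher in the fetal pair numbered 37 to 41 (40.1% to 50% of all genes). The signs that changed were those of Wnt11, Rspo4, Sfrp5, Dkk4 and Notum. The fold threshold did move the counts. At 1.5-fold, 10 members were lower in the ESC-derived pair (2.32% of all genes), 13 higher (5.92%) and 2 lower (2.80%) in the fetal pair, and 9 (7.88%) and 18 (10.4%) higher in the culture among CORIN+ and CORIN- cells. At 3-fold, 0 were higher in the ESC-derived pair (0.0351%), 2 higher in the fetal pair (1.34%), 5 lower in the culture among CORIN+ cells (2.08%), and 3 higher (1.57%) and 2 lower (1.46%) among CORIN- cells. With the offset, Dkk3 fell short of 2-fold in the fetal pair (1.97-fold). No background or detection values were used, so signal over background is unknown for members of low signal. No paired analysis was possible because each population has 1 array and the labels carry no replicate numbers, and for the same reason no replicate could be left out.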
